A study of Rattus norvegicus with 6 samples.

Results

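Metallothioneins and zinc transport genes were followed in synovial fibroblast-like cells of arthritic rats under 3 culture conditions. The set held 8 genes chosen by symbol: the metallothioneins Mt1a, Mt2A and Mt3, the zinc-sensing transcription factor Mtf1, the exporters Slc30a1 and Slc30a5, and the importers Slc39a10 and Slc39a14. Of these, 7 had a row in the deposited table, which holds 16499 symbols, and 6 were abundant enough to be tested. Slc39a10 was not analysed here. Mt3 was represented by 1 read over all 6 libraries and was not tested. For each symbol the row with the highest mean level was to be taken, and since every one of the 7 had a single row, that choice left nothing out. The genes were put together with earlier results of these libraries in view, Mt1a above all because of its difference from FBS, so the tests below describe them and are no independent evidence.

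Cells came from the synovium, the joint lining, of 2 female Wistar rats with collagen-induced arthritis, taken before any therapy and expanded in medium with fetal bovine serum (FBS). The cells of each rat were then split over 3 media. These held FBS, the standard condition, or blood serum of animals without needle stimulation (MS−), or blood serum of animals treated for 18 days by subcutaneous mechanical stimulation with a needle, which the labels call acupuncture (MS+). Each medium has 2 libraries, 1 per rat, and the replicate is thus the rat that gave the cells, while the number of serum donors is not given in the sources used here. The labels of MS− name healthy rats in one field and arthritic rats in another. The paper describes the MS− donors as untreated animals with induced arthritis, bled before therapy began, and the MS+ donors as bled at day 18. MS+ and MS− thus differ in time of sampling as well as in treatment, and these cannot be told apart. FBS differs from both rat sera in species and in every other property of the product, and these cannot be told apart. The zinc content of the media was not analysed here.

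Libraries held 5463316 to 5991889 reads, so that 3 reads, taken as the floor of detection, correspond to 0.491 to 0.551 CPM. Levels are given in CPM, reads scaled to the TMM-adjusted library size. Of 14 fibroblast markers, 12 were at 1 CPM or more in every library. Dcn and Lum were not, with 7 and 17 reads over all 6 libraries, and Prg4 measured only 1.27 to 3.32 CPM. The summed level of the list was 114264 to 118556 CPM in FBS, 91076 to 93708 CPM in MS− and 95959 to 101598 CPM in MS+. Of 10 leukocyte and macrophage markers, 6 had no read in any library, Ptprc among them. Cd14 (12.1 to 19.4 CPM) and Cd74 (2.17 to 5.31 CPM) were at 1 CPM or more in every library. The summed level of the list was 17.9 to 18.8 CPM in FBS, 19.3 to 25.8 CPM in MS− and 18.7 to 21.1 CPM in MS+. Of 7 endothelial markers, 5 had a row, 3 of these (Cdh5, Emcn and Tie1) had no read, and the sum stayed between 0.181 and 1.47 CPM. Without the block limma called none of the 12 tested fibroblast markers. At an unadjusted p under 0.05 there were 2 in MS+ and 3 in MS− against FBS, and the matching share of all features is not given here. In the blocked fit 3 were called higher and 3 lower in MS+ against FBS, beside 14.4% and 13.9% of all features. In MS− 5 were lower than FBS, beside 9.63%, and 1 was higher in MS+ than in MS−, beside 5.27%. The part of these sums in the results was not tested. In such bulk RNA, fewer cells that express a gene and less RNA per cell cannot be told apart.

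Zinc is held in the cell by metallothioneins, small cysteine-rich proteins that bind zinc, copper and cadmium. When free zinc in the cytosol rises, MTF1 binds metal response elements in the promoters of metallothionein genes and of Slc30a1 and increases their transcription. Exporters of the SLC30 family, called ZnT, move zinc out of the cytosol, across the plasma membrane in the case of ZnT1 (Slc30a1) and into organelles in the case of most others. Importers of the SLC39 family, called ZIP, move zinc into the cytosol. Glucocorticoids and interleukin 6 are also known to induce metallothioneins, and ZIP14 (Slc39a14), which carries zinc, iron and manganese, is a known target of interleukin 6 in the liver.

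Both metallothioneins with usable counts were far lower in the 2 rat sera than in FBS. The zinc exporter Slc30a1 was lower and the importer Slc39a14 higher than FBS in every rat serum library. Limma called both of these differences in MS+, and in MS− only with the rat as a term. Differences were tested with limma on log2(CPM + 1) over 9820 features, and a feature was called at a Benjamini-Hochberg adjusted p under 0.05. Adjusted p values below are from that fit, and those named as blocked add the rat as a term. Between MS+ and FBS, 4 of the 6 tested members were called, 3 lower and 1 higher, where 9.61% of all features were called (4.66% lower and 4.95% higher). Between MS− and FBS, 2 of the 6 were called, both lower, where 4.81% of all features were called (2.72% lower). Between MS+ and MS− limma called 0 of the 6, where 0.0204% of all features were called. At unadjusted p under 0.05 there was 1 of the 6 (Slc39a14) in that comparison, beside 14.7% of all features, and edgeR, limma-voom and DESeq2 also called 0. With the rat as a block the counts of called members were 4, 4 and 1 in this order, beside 28.2%, 20.5% and 10.1% of all features. The counts against FBS include Mt1a and Mt2A as the fit gave them, which is a description. Nothing is read from these counts, because the members were chosen with these contrasts known and because Mt1a and Mt2A passed the filter on low values through the FBS libraries alone. Both comparisons with FBS use the same 2 FBS libraries.

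**Figure D1:**
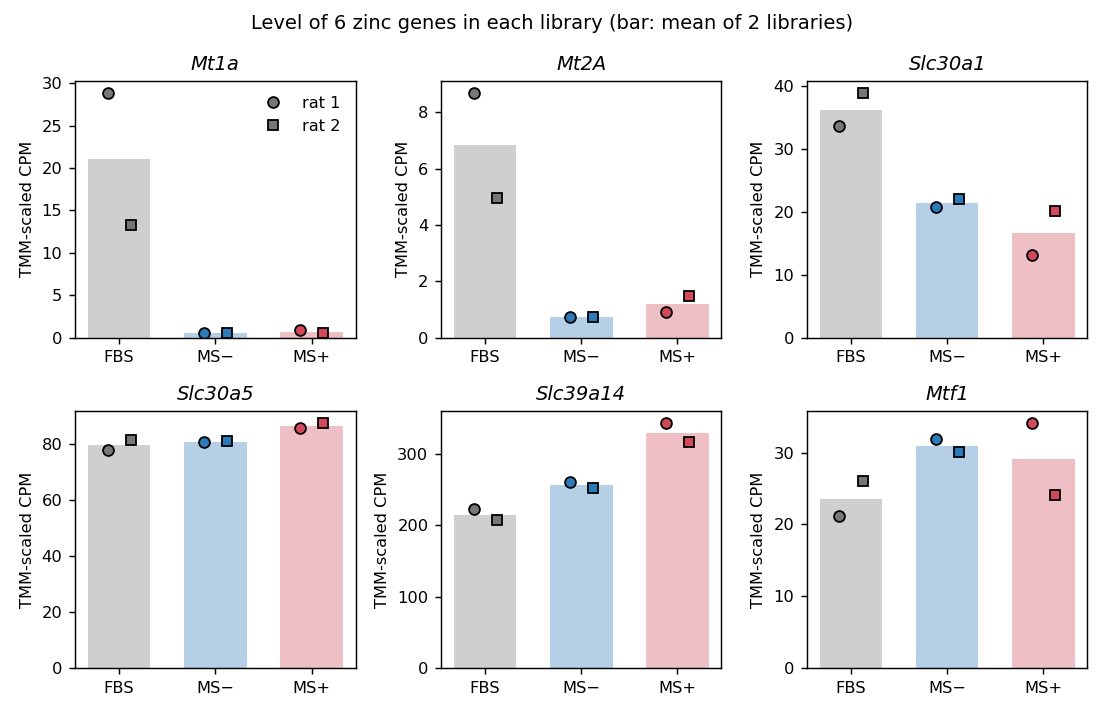
Level of the 6 tested genes in each library, in TMM-scaled CPM on a linear axis that starts at 0, by culture condition. Bars are means of 2 libraries, circles are rat 1 and squares are rat 2. Mt1a and Mt2A stand above 4 CPM in FBS and below 1.5 CPM in both rat sera, and Slc39a14 climbs from FBS over MS− to MS+ without overlap.

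Mt1a (NM_138826, named Mt1 in the newer gene table of the GRCr8 assembly) encodes the metallothionein 1 protein. It lies on chromosome 19, 11261631 to 11262647 in rn4, minus strand. In FBS it measured 28.8 CPM (176 reads) in rat 1 and 13.3 CPM (80 reads) in rat 2. In MS− it measured 0.549 CPM in rat 1 and 0.542 CPM in rat 2, which was 3 reads in each. In MS+ it measured 0.901 CPM in rat 1 (5 reads) and 0.551 CPM in rat 2 (3 reads). Every library with rat serum was thus at or near the floor of detection, and the lowest FBS library was far above all of them. The pooled reads, 256 in FBS against 6 in MS−, gave a level 38.7 times as high in FBS, with a 95% exact counting interval of 17.5 to 106. Against the 8 reads in MS+ the level in FBS was 29.0 times as high, with an interval of 14.5 to 67.9. These intervals cover counting error only and not the spread between rats, which was itself wide in FBS. The fitted log2 ratio (the fold change on the log2(CPM + 1) scale) was -3.74 (± 0.37 SE) for MS− and -3.59 (± 0.37 SE) for MS+ against FBS, and no p is printed for them because Mt1a was chosen for this difference. Per rat, the difference of MS− from FBS was -4.27 in rat 1 and -3.21 in rat 2 on the log2(CPM + 1) scale. That of MS+ from FBS was -3.97 in rat 1 and -3.20 in rat 2. Between MS+ and MS− the log2 ratio was 0.15 (± 0.37 SE, adjusted p 0.899), and with 8 against 6 reads a difference was not detectable at this depth.

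Mt2A (NM_001137564, chromosome 19, 11267811 to 11268585, minus strand) encodes the other metallothionein made in most tissues. Its span lies only 5163 bases from that of Mt1a. It measured 8.68 CPM in rat 1 and 4.97 CPM in rat 2 in FBS, from 53 and 30 reads. In MS− it measured 0.732 CPM in rat 1 and 0.723 CPM in rat 2, from 4 reads each. In MS+ it measured 0.901 CPM in rat 1 and 1.47 CPM in rat 2, from 5 and 8 reads. As with Mt1a, the groups with rat serum did not overlap with FBS, and rat 1 gave the higher value in FBS. Groups that do not overlap were found for 51.6% of all features between MS− and FBS and for 56.7% between MS+ and FBS, so a gap alone sets no gene apart. The log2 ratio against FBS was -2.14 (± 0.31 SE) for MS− and -1.81 (± 0.31 SE) for MS+, and no p is printed for them because Mt2A passed the filter on low values through its FBS libraries alone. The pooled reads gave a level 9.40 times as high in FBS as in MS− (95% exact counting interval 4.56 to 22.5) and 5.78 times as high as in MS+ (3.20 to 11.3). Between MS+ and MS− the log2 ratio was 0.33 (± 0.31 SE, adjusted p 0.695), from 13 against 8 reads.

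Mt3 (NM_053968), the metallothionein known from the brain, had 1 read, in the FBS library of rat 2. Mt4, known from stratified epithelium, had 0 reads in all 6 libraries. The 4 genes lie side by side on the minus strand of chromosome 19 over 40523 bases, and the 2 that had counts are the ones at its low-coordinate end. Reads of metallothionein genes are uncertain, because their sequences are close to each other and to copies elsewhere: the GRCr8 gene table lists 4 pseudogenes of the Mt1 group, on chromosomes 1, 6, 17 and 20, and a protein-coding Mt1f on chromosome X, and how the authors' alignment shared reads among such copies is not given in the sources used here. The nearest tested genes on either side of the cluster were looked at after their values were seen. Nup93, a nuclear pore component 37760 bases from Mt1a, was also lower than FBS, at 27.8 and 29.2 CPM in FBS, 15.2 and 18.4 CPM in MS− and 13.7 and 12.5 CPM in MS+. Its log2 ratio was -0.73 (± 0.15 SE, adjusted p 0.0475) for MS− and -1.07 (± 0.15 SE, adjusted p 0.0114) for MS+. The call for MS− was lost without any 1 of the 6 libraries, without the filter on low values and in DESeq2. That for MS+ was lost without either FBS or either MS+ library. Bbs2, a ciliary gene 45278 bases beyond Mt4, measured 6.47 to 7.71 CPM over all 6 libraries, with log2 ratios of 0.02 and 0.05 (SE 0.19 each).

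The promoters of the 3 members that were lower in rat serum are shown because they hold the sequence that MTF1 is known to bind. The core of the metal response element was searched as TGCACNC and TGCGCNC on both strands, with overlapping matches counted once, in the 250 bases before each annotated start. Sequences are from RefSeq on GRCr8, a later build than the rn4 of the counts, and read 5′ to 3′ on the strand of the gene. Capitals mark the matches, which on the other strand read as the reverse complement. The Mt1a promoter is chr19:10832976-10833225 (minus strand), that of Mt2A is chr19:10838709-10838958 (minus strand) and that of Slc30a1 is chr13:106021769-106022018 (plus strand).
Mt1a: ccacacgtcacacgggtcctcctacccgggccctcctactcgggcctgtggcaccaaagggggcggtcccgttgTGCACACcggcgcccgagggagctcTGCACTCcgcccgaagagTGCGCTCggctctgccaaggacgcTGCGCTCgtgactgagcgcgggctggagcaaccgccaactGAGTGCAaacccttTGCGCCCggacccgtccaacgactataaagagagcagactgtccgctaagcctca
Mt2A: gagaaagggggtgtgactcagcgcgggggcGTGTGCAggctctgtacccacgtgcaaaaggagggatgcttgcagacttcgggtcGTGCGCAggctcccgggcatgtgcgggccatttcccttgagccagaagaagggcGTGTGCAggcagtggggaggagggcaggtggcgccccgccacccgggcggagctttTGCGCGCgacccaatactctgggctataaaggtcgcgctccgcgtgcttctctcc
Slc30a1: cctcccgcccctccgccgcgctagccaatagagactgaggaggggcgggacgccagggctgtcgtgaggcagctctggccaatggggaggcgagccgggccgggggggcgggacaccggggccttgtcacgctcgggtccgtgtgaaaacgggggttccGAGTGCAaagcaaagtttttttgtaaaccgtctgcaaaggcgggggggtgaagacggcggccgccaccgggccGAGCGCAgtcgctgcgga
The Mt1a window held 6 matches, the first beginning 176 bases and the last 55 bases before the start. The Mt2A window held 4, from 220 to 55 bases before the start, and the Slc30a1 window held 2, at 91 and 18 bases. Of all 33469 promoters in the table, 20.6% held at least 1 match, 3.99% at least 2, 0.128% at least 4 and 0.0239% at least 6. Promoters were found for 7 of the 8 members, and the windows of Mt3, Mtf1, Slc30a5 and Slc39a10 held 3, 2, 1 and 0 matches. Among the other tested ZnT and ZIP genes, Slc39a7 held 3 matches, Slc39a13 and Slc30a4 held 2, and Slc39a1 and Slc39a11 held 1. Slc39a7, Slc39a13 and Slc39a1 lay above FBS in every rat serum library, and Slc39a11 lay below it. Slc30a4 lay above FBS in MS− and below it in MS+. A match describes these letters and is not a measured binding site. Mt3, with 3 matches, had almost no reads in any medium. Apart from Mt1a and Mt2A, 12 tested features had at least 4 matches. Of these, 1 was lower than FBS in each rat serum (Kank4, named after its values were seen) and 0 were higher, beside 4.62% lower in MS+ and 2.87% lower in MS− over the 7430 features with a promoter.

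**Figure D2:**
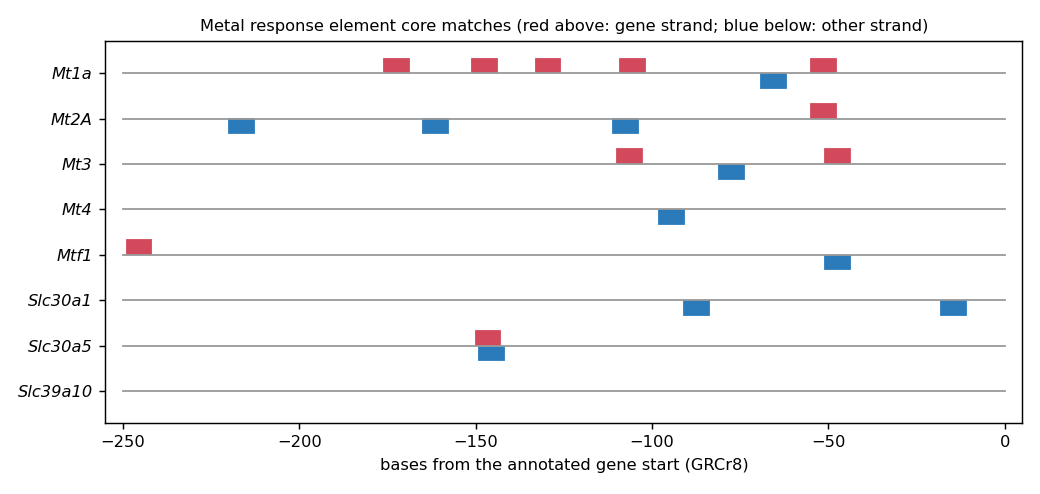
Position of metal response element core matches in the 250 bases before the annotated start (x axis, in bases from the start) for 8 genes of the family. Red boxes above a line are matches on the strand of the gene and blue boxes below it are on the other strand. Mt1a has 6 matches and Mt2A has 4, while Mt4 has 1. The 2 overlapping boxes of Slc30a5 count as 1 match.

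Slc30a1 (NM_022853, chromosome 13, 107980864 to 107986519, plus strand) encodes ZnT1, the exporter of the plasma membrane. It measured 33.6 CPM in rat 1 and 38.8 CPM in rat 2 in FBS. In MS− the values were 20.7 and 22.1 CPM, and in MS+ they were 13.2 and 20.2 CPM, in the same order of rats. The 3 groups followed each other downward from FBS over MS− to MS+ without overlap, an order that 4.66% of all features had. The difference of MS+ from FBS was called, with a log2 ratio of -1.10 (± 0.21 SE, adjusted p 0.0250), or 16.7 ± 4.98 CPM against 36.2 ± 3.70 CPM (SD, n = 2 each). It was lost without FBS replicate 1, FBS replicate 2, MS− replicate 1 or MS+ replicate 1, with an adjusted p of up to 0.113, and without the filter on low values (0.0521). For MS− against FBS the log2 ratio was -0.73 (± 0.21 SE), at an adjusted p of 0.109 unblocked and 0.00306 blocked. Between MS+ and MS− it was -0.37 (± 0.21 SE), at an adjusted p of 0.479 unblocked and 0.147 blocked. The step from MS− to MS+ was -0.61 in rat 1 and -0.12 in rat 2, so the MS+ library of rat 1 carries most of it.

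Slc30a5 (NM_001106404, chromosome 2, 31607557 to 31637655, minus strand) encodes ZnT5, which loads zinc into the secretory pathway. It measured 77.8 and 81.2 CPM in FBS, 80.5 and 81.0 CPM in MS−, and 85.4 and 87.2 CPM in MS+ (rat 1 and rat 2 each time). FBS and MS− overlapped, and MS+ lay above both by a few CPM. The log2 ratios were 0.12 for MS+ and 0.02 for MS− against FBS and 0.09 between the rat sera (SE 0.09 each), and none was called with or without the block in limma, where the adjusted p lay between 0.383 and 0.920.

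Slc39a14 (NM_001107275, chromosome 15, 50703198 to 50749644, minus strand), which encodes ZIP14, measured 223 CPM in rat 1 and 207 CPM in rat 2 in FBS. It measured 261 and 252 CPM in MS−, and 343 and 317 CPM in MS+. The groups followed each other upward from FBS over MS− to MS+ without overlap, which 5.38% of all features did, and the difference of MS+ from FBS was 0.62 in rat 1 and 0.61 in rat 2. The fitted log2 ratio of MS+ against FBS was 0.62 (± 0.09 SE, adjusted p 0.0124), or 330.0 ± 18.4 CPM against 215 ± 11.2 CPM (SD, n = 2 each). That call was lost when either FBS library or either MS+ library was left out, with an adjusted p of up to 0.0963. Against MS−, MS+ was higher by 0.36 (± 0.09 SE), at an adjusted p of 0.177 unblocked and 0.00892 blocked, and by 0.39 in rat 1 and 0.33 in rat 2. It was the one member called between the 2 rat sera with the rat as a block. MS− against FBS gave 0.25 (± 0.09 SE), at an adjusted p of 0.181 unblocked and 0.0340 blocked.

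Mtf1 (NM_001108677, chromosome 5, 144135674 to 144180430, plus strand), the factor itself, measured 21.1 and 26.0 CPM in FBS, 31.8 and 30.0 CPM in MS−, and 34.1 and 24.0 CPM in MS+ (rat 1 and rat 2). MS− lay above FBS in both rats, whereas MS+ was above FBS in rat 1 (0.66) and below it in rat 2 (-0.11). The log2 ratio was 0.38 (± 0.19 SE) for MS− and 0.28 (± 0.19 SE) for MS+ against FBS, with limma adjusted p values of 0.313 and 0.402, and with the block of 0.116 and 0.226. Between MS+ and MS− it was -0.11 (± 0.19 SE, adjusted p 0.855). The transcript level of Mtf1 was thus called in none of the 3 comparisons in limma, with or without the block, and its MS+ libraries differed from each other more than the group means did.

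**Figure D3:**
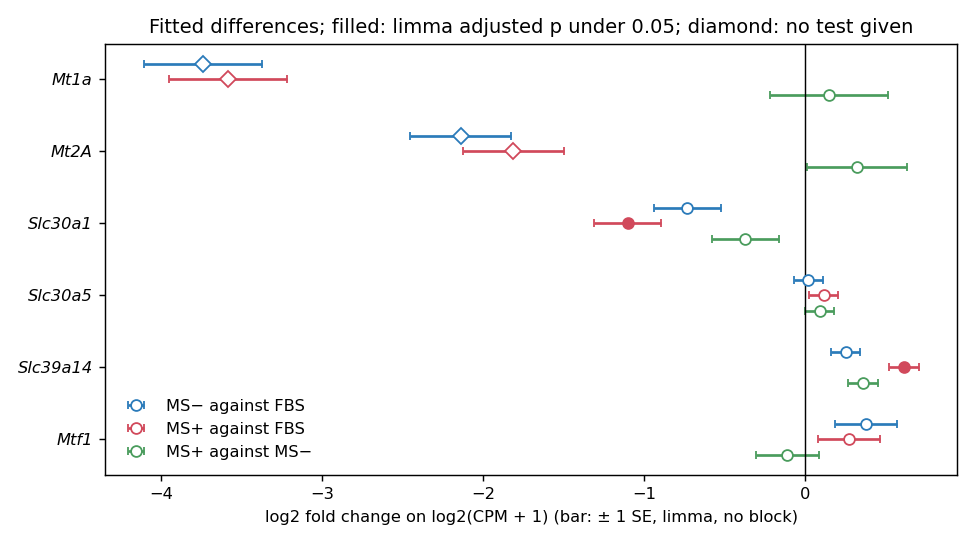
Fitted log2 ratio of each tested gene on the log2(CPM + 1) scale (x axis), with bars of 1 SE from limma without the block, in 3 comparisons by colour. Filled points have an adjusted p under 0.05, and diamonds mark ratios given with no test. The metallothioneins lie at -1.81 to -3.74 against FBS, and Slc39a14 reaches 0.62 in MS+.

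Across the 6 libraries the log2(CPM + 1) values of Mt1a and Mt2A correlated with a Pearson r of 0.98, those of Mt1a and Slc30a1 with 0.82, and those of Slc30a1 and Slc39a14 with -0.94. These are descriptions over 6 libraries that share 3 media and 2 rats. The 5 features most like Mt1a by this measure, among 9721 with a mean of at least 1 CPM, were Ncaph2, Grb10, Prps1, Cnn3 and Chtf18 (r 0.990 to 0.999). Those most like Mt2A, a list added after its values were seen, were Fam132a, Ppp2r4, Ube2d1, Lpin2 and S100a4 (r 0.990 to 0.997). Such values are common here, since 124 features had an r above 0.95 with Mt1a and 119 with Mt2A. The measure ignores the size of the change: Grb10 measured 468 CPM in FBS and 365 CPM in MS− on average, a far smaller drop than that of Mt1a.

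The wider families were taken from lists of 10 ZnT and 14 ZIP genes. Of the ZnT genes, 6 were tested, and Slc30a2, Slc30a8 and Slc30a10 had no read. Slc30a1 was the one ZnT gene called without the block, lower in MS+ against FBS, where 4.66% of all features were lower. The block gave 2 lower in MS+ (Slc30a1 and Slc30a4) and 1 in MS− (Slc30a1) against FBS, beside 13.9% and 9.63%. Between the rat sera it gave 1 lower (Slc30a4), where 10.1% of all features were called in either direction. Slc30a1 and Slc30a5 are members, so these counts are not independent of the members. The median log2 ratio of the 6 was 0.05 in MS+ and 0.06 in MS−, beside 0.00078 and 0.014 over all features. The most abundant of them, Slc30a4, encodes ZnT4 of endosomes and lysosomes. It measured 128 and 141 CPM in FBS, 145 and 142 CPM in MS−, and 110.4 and 104 CPM in MS+. It was thus lowest in MS+, where both libraries lay under the other 4, with a log2 ratio of -0.42 (± 0.09 SE) against MS−, at an adjusted p of 0.144 unblocked and 0.00867 blocked.

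Of 13 ZIP genes with a row, 10 were tested, 4 were higher and 0 lower in MS+ against FBS, and 1 was higher and 0 lower in MS−, while 4.95% and 2.09% of all features were higher. The median log2 ratio of the 10 was 0.44 in MS+ and 0.28 in MS− against FBS, and 0.21 between MS+ and MS−, where limma called 0 and 3 had an unadjusted p under 0.05. In that last comparison 8 of the 10 were higher in MS+ without overlap, where 22.6% of all features were. With the block 5 were higher in MS+ and 4 in MS− against FBS, and 1 (Slc39a14) between the rat sera, beside 14.4%, 10.8% and 5.27% of all features. The list includes Slc39a14, so these counts are not independent of the members.

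Slc39a13 encodes ZIP13, an importer of secretory vesicles whose loss is known to disturb connective tissue. It measured 245 and 271 CPM in FBS, 368 and 351 CPM in MS−, and 428 CPM in both MS+ libraries. All libraries with rat serum lay above FBS, with a log2 ratio of 0.73 (± 0.09 SE, adjusted p 0.00830) in MS+ and 0.48 (± 0.09 SE, adjusted p 0.0373) in MS−. Slc39a1, which encodes the plasma membrane importer ZIP1, measured 321 and 361 CPM in FBS, 487 and 443 CPM in MS−, and 511 and 452 CPM in MS+. The rat sera overlapped with each other and not with FBS, and the log2 ratio of 0.50 (± 0.11 SE) in MS+ was called (limma adjusted p 0.0402), while that of 0.45 in MS− was not (0.0780, and 0.00244 with the block). Slc39a6, which encodes ZIP6, measured 117 and 132 CPM in FBS, 159 CPM in both MS− libraries, and 162 and 173 CPM in MS+. Its log2 ratio was 0.43 (± 0.10 SE, adjusted p 0.0422) in MS+ and 0.36 in MS− (0.0997, and 0.00839 with the block). Of the 3 calls just named in MS+, 0 to 1 were made when 1 library was left out, with 0 without FBS replicate 1, MS+ replicate 1 or MS+ replicate 2, and the call of Slc39a13 in MS− was lost without any 1 of the 6 libraries. Not every importer followed. Slc39a3, Slc39a5 and Slc39a11 were lower than FBS in MS+ in both rats, at log2 ratios of -0.15, -0.24 and -0.17. None of them was called. In MS− it was Slc39a5, Slc39a8 and Slc39a11 that were lower than FBS in both rats. Limma called none of these, while edgeR with the block called Slc39a5 lower. Slc39a8 measured 5.89 and 3.98 CPM in FBS, 3.11 and 2.89 CPM in MS−, and 5.04 and 5.51 CPM in MS+.

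**Figure D4:**
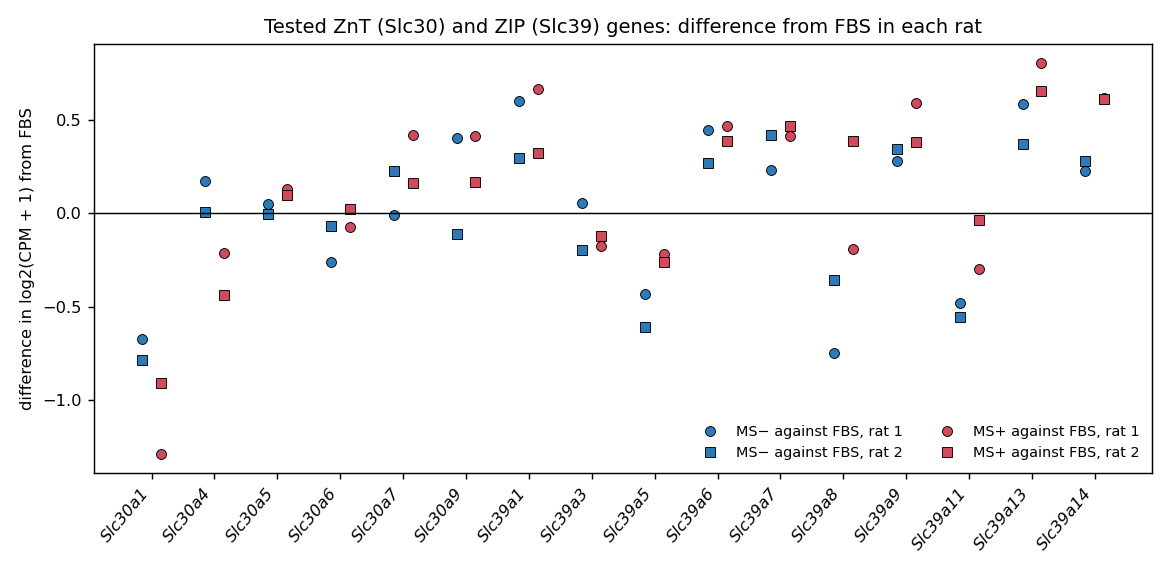
Difference from FBS on the log2(CPM + 1) scale (y axis) in each rat for the 6 tested ZnT genes and the 10 tested ZIP genes, with MS− in blue and MS+ in red, circles for rat 1 and squares for rat 2. Slc30a1 lies at -0.67 to -1.29 and has the lowest point, although Slc39a8 (-0.75) lies below it in MS− in rat 1. Slc39a13 and Slc39a14 lie above 0 in both rats and both sera.

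Further lists covered other metals and the other known inducers. Their counts stand beside 4.95% of all features higher and 4.66% lower in MS+, and 2.09% higher and 2.72% lower in MS−, against FBS. With the rat as a block these shares were 14.4% and 13.9% in MS+, and 10.8% and 9.63% in MS−. Among 11 tested copper handling genes, the 1 called without the block was Slc31a2, a copper transporter of endosomes and lysosomes. With the block 3 were higher and 2 lower in MS+, and 1 was higher in MS−. It measured 21.4 and 15.4 CPM in FBS, 40.4 and 33.3 CPM in MS−, and 36.0 and 31.0 CPM in MS+, with log2 ratios of 0.97 (± 0.19 SE, adjusted p 0.0397) in MS− and 0.84 (± 0.19 SE, adjusted p 0.0416) in MS+. Both calls were lost without any 1 of the 6 libraries, with an adjusted p of up to 0.214 and 0.200, and without the filter on low values. The median of the list was -0.03 in MS− and 0.17 in MS+. Sod1, a copper and zinc enzyme, measured 100.2 and 76.1 CPM in FBS and 67.2 to 103 CPM in the rat sera, with no call against FBS.

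Among 8 tested iron handling genes, 1 was called, in MS+ against FBS without the block, and with it 2 were higher and 2 lower in each rat serum. The gene called without the block was Tfrc, the transferrin receptor for iron uptake, with 41.6 and 56.2 CPM in FBS, 94.8 and 77.5 CPM in MS−, and 149 and 119 CPM in MS+. Its 3 groups did not overlap, and its log2 ratio was 1.45 (± 0.18 SE, adjusted p 0.00840) in MS+ and 0.81 (± 0.18 SE, adjusted p 0.0598, and 0.00074 with the block) in MS−. The call in MS+ was lost without FBS replicate 1 or MS+ replicate 1 (adjusted p up to 0.0725). The ferritin heavy chain Fth1, an iron store, measured 993 and 776 CPM in FBS, 729.9 and 594 CPM in MS−, and 712 and 583 CPM in MS+. It was lower in rat serum in both rats, at log2 ratios of -0.41 in MS− and -0.45 in MS+, called with the block (limma adjusted p 0.00144 and 0.000564) and not without it (0.230 and 0.149). The list medians were 0.10 in MS− and -0.09 in MS+.

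Among 11 tested heavy metal stress genes, 2 were lower in MS+, 1 was lower in MS− and 0 were higher without the block. With the block 4 were lower and 2 higher in MS+, and 3 were lower in MS−. Hmox1, the heme-degrading enzyme that metals and oxidants induce, measured 530.05 and 372 CPM in FBS, 207 and 188 CPM in MS−, and 205 and 162 CPM in MS+. All 4 libraries with rat serum lay well below FBS, with log2 ratios of -1.17 (± 0.19 SE, adjusted p 0.0219) in MS− and -1.28 (± 0.19 SE, adjusted p 0.0118) in MS+. These calls were lost without FBS replicate 1 or without either library of the serum concerned (adjusted p up to 0.131 and 0.0754), and that in MS− also without the filter on low values. Hspa1b, an inducible heat shock protein 70, fell by 0.88 (± 0.21 SE, adjusted p 0.0452) in MS+ against FBS, but it overlaps a row of another symbol and has a near-identical neighbour, so its counts are uncertain, and its call was lost without any 1 of the 6 libraries (adjusted p up to 0.197), without the filter on low values and in DESeq2. The list medians were -0.19 in MS− and -0.10 in MS+.

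Of 9 tested genes of the glucocorticoid receptor and its targets, 8 were higher in MS+ and 2 in MS− against FBS without the block, and 0 were lower. With the block 8 were higher in each rat serum, and the medians were 1.42 in MS+ and 0.66 in MS−. Sgk1 and Zbtb16 are among the tested genes and passed the filter on low values through the rat serum libraries alone. These counts are therefore a description. Per1, a clock gene that the receptor induces, measured 33.7 and 40.0 CPM in FBS, 106 and 104 CPM in MS−, and 168 and 146 CPM in MS+. It was called in both sera under each of the 18 alternatives. Fkbp5, a chaperone that the receptor induces, measured 16.9 and 15.4 CPM in FBS, 31.7 and 43.2 CPM in MS−, and 43.6 and 60.9 CPM in MS+. Its calls in both sera were lost without either FBS library or either library of the serum concerned, with an adjusted p of up to 0.164 in MS− and 0.0561 in MS+, and that in MS− also without the filter on low values. Zbtb16 had no read in FBS and measured 1.28 to 6.97 CPM in the rat sera, and the list medians were the same with its FBS level set to the floor of 3 reads. Sgk1 measured 0.818 and 0.663 CPM in FBS and had a log2 ratio of 1.52 (± 0.32 SE) in MS+. No p is printed for it because of the way it passed the filter. Its call was lost without any 1 of the 6 libraries and without the filter on low values. The receptor gene Nr3c1 itself was not called, at 0.06 in MS+ and 0.26 in MS−.

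Of 10 tested genes of interleukin 6 family signalling, 0 were higher and 1 was lower in each rat serum without the block. With it 2 were lower in MS+, and 3 were lower and 1 higher in MS−. The gene called without the block was Socs3, a feedback inhibitor induced by these cytokines, with 5.40 and 7.46 CPM in FBS, 1.65 and 1.27 CPM in MS−, and 1.44 and 1.65 CPM in MS+. Its log2 ratio was -1.59 (± 0.25 SE, adjusted p 0.0211) in MS− and -1.53 (± 0.25 SE, adjusted p 0.0174) in MS+, and these calls were lost without either FBS library or either library of the serum concerned (up to 0.124 and 0.104). Il6 measured 14.2 and 9.95 CPM in FBS, 7.13 and 6.15 CPM in MS−, and 6.31 and 2.39 CPM in MS+, with a log2 ratio of -1.38 in MS+ (± 0.37 SE, adjusted p 0.0682, and 0.000471 with the block). The medians of the list were 0.04 in MS− and -0.11 in MS+. The part of these genes in the levels of the metallothioneins and of Slc39a14 was not tested.

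**Figure D5:**
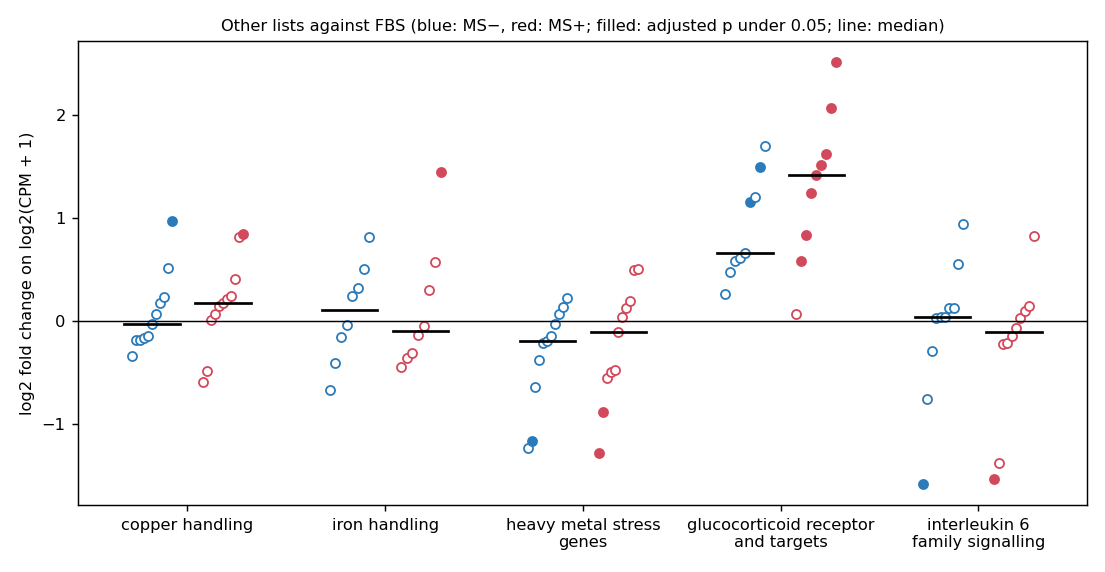
Fitted log2 ratio against FBS on the log2(CPM + 1) scale (y axis) for the tested genes of 5 lists, with MS− in blue and MS+ in red, filled where the limma adjusted p is under 0.05, and a line at the median of each list. The glucocorticoid list has medians of 0.66 and 1.42, and the other 4 lists have medians between -0.19 and 0.17. Sgk1 and Zbtb16 passed the filter on low values through the rat sera alone, so their fill is a description.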

How the data were processed

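Poly(A)-selected RNA was sequenced by a company, which removed low-quality reads. Per the labels and the study's methods, the authors aligned reads to rn4 with Bowtie2 2.1.0 and counted them per transcript with HTSeq 0.5.4p3 in intersection-nonempty mode. Strand use is not given in the sources used here. The authors deposited TMM-scaled CPM, a normalized signal per transcript, for 17221 rows. All values (100% per library) were whole multiples of 1 read, to within 1e-06 reads, so reads were recovered for the read-based tests.

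Features were kept if both libraries of at least 1 group reached 1 CPM (9820 features). All 6 libraries entered 1 two-sided limma-trend fit on log2(CPM + 1) (limma 3.58.1, R 4.3.3) with culture condition as the only term. This scale understates the change of low genes. Adjustment was Benjamini-Hochberg over all features. Alternatives were edgeR 4.0.16, DESeq2 1.42.0 and limma-voom on the recovered reads, other scalings, pseudocounts and filters, summed rows and leaving out each library. On simulated data, limma was run with and without the block, and edgeR, limma-voom and DESeq2 without it. The other alternatives were not simulated.

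Replicate numbers pair the libraries, since the labels name the same 2 rats in each medium. The rat 2 minus rat 1 deviation correlated over features by 0.49 to 0.62 between media. The rat was therefore also fitted as a block. P-values measure the spread between these samples. Libraries of a group were not copies (chi-square per degree of freedom 13.6 to 15.1).

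The members, gene lists and motif were chosen with earlier results of these data known. Named were all members, up to 4 genes per list past the threshold by size of change or else the most abundant, and the 5 features most like Mt1a. The list for Mt2A was added later. Sod1, Fth1, Nr3c1, Il6, Slc39a3, Slc39a5, Slc39a7, Slc39a8, Slc39a11, Nup93, Bbs2 and Kank4 are outside this rule and were named after their values were seen. Coordinates are rn4, 1-based, except for promoters (RefSeq, GRCr8). Of the rows, 15950 (92.6%) were found by accession in the RefSeq gene table.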

Additional observations from a re-analysis of the deposited data

How the results depend on the processing

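Counts here include Mt1a and Mt2A against FBS as fitted. The alternatives were 18, of which 6 left out 1 library each; edgeR with the replicate block was added after the data were seen. Of 324 fold changes of the 6 tested members under an alternative, 299 kept their direction and their side of the threshold, 16 lost and 6 gained the call, and 3 uncalled ones changed sign. These 3 were Mtf1 between MS+ and MS− (-0.11, and 0.14 without MS+ replicate 2, with a range of -0.35 to 0.14 over left-out libraries) and Slc30a5 between MS− and FBS (-0.00818 under library totals and -0.00889 without FBS replicate 1, with a range of -0.00889 to 0.0536 over left-out libraries).

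With the replicate block, whether in limma or in edgeR, members called rose from 0 to 1 between MS+ and MS− (Slc39a14) and from 2 to 4 between MS− and FBS (Slc30a1 and Slc39a14 added), and stayed at 4 between MS+ and FBS. Leaving out 1 library gave 0 to 0, 1 to 2 and 0 to 4 called members for MS+ against MS−, MS− against FBS and MS+ against FBS. The 0 arose without MS+ replicate 1, and 1 remained without FBS replicate 1.

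Of the 13 tested ZnT and ZIP genes that are no members, 0, 3 and 1 were called (MS+ against MS−, MS+ against FBS, MS− against FBS). With the block limma called 1, 5 and 3, and edgeR called 1, 6 and 4. Without a filter the last 2 counts were 1 and 0. Without the block edgeR called 0 and DESeq2 called 2 between MS− and FBS. Leaving out 1 library gave 0 to 0, 0 to 1 and 0 to 0. The call of Slc39a13 in MS− was thus lost without an MS+ library too. Such a library does not enter that fold change, only the filter, the shared spread and the adjustment. The cause of these changes was not tested. Depth limits Mt1a and Mt2A, with 3 to 8 reads per library in rat serum, and no cause of their level in FBS can be told apart from the serum.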
